A study of Mus musculus with 2 samples.

Results

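The cells described here, proposed as inner bulge cells of the hair follicle, were picked out of single-cell RNA-seq of mouse back skin by UMIs of Krt75, Sncg and Fgf18. A UMI (unique molecular identifier) counts 1 captured RNA molecule. Members were selected on measured values: 3 or more UMIs summed over Krt75, Sncg and Fgf18, at least 1 UMI of Krt6a, fewer than 20 over the upper follicle genes Krt79, Defb6 and Cst6, and fewer than 20 over the collagens Col1a1 and Col1a2. This rule found 380 of 7564 kept cells, 114 of 3936 in the control library and 266 of 3628 in the miR-205-induced library. The filter kept a cell if its number of detected genes lay between 200 and 5000 and its mitochondrial UMIs were under 10%.

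The study sequenced back skin of 1 control mouse and 1 mouse carrying an inducible miR-205 transgene, both at postnatal day 53, with 1 10x Genomics library each. Both mice were labelled C57BL/6 and matched for sex, and both carried a K14-H2BGFP allele, a green nuclear label. The control was a littermate, per the study's methods. In the inducible mouse, the Krt14 promoter drives rtTA, which switches on the pTRE2-miR-205 transgene under doxycycline. The study's methods state that the transgene was injected into FVB mice. Doxycycline chow was given for 4 days from day 49. The protocol text says that both mice ate it, while the sample field of the control reads untreated, so what the control received is not settled. Live cells were sorted on surface proteins and H2BGFP to give epidermal, hair follicle and dermal cells in a ratio of 3:5:2, which set the share of follicle cells. With 1 mouse per group there was no replicate and no test of induction. All intervals below are 95% and cover counting error only.

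The bulge holds hair follicle stem cells (HF-SCs) between hair cycles. It has an outer layer, which contains the stem cells marked by Cd34 and Krt24, and an inner layer of keratinocytes that hold the club hair in place. Inner bulge cells are known as a source of BMP6 and FGF18, signals that keep neighbouring stem cells quiescent. Krt75 (chr15:101563343-101573904, GRCm38.p6, the build also called mm10) encodes a companion layer keratin. Sncg (chr14:34370274-34374669) encodes gamma-synuclein, Fgf18 (chr11:33116970-33147400) a secreted growth factor and Krt6a (chr15:101689928-101694305) a keratin of the inner bulge and of wounds.

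MicroRNAs act by pairing their seed, bases 2 to 8, with target transcripts. The mature arms of mouse miR-205, which the transgene carries, are shown with the seed in capitals. Sequences and positions are from RefSeq on GRCm38.p6, both on the minus strand, the 5p arm at chr1:193507503-193507524 and the 3p arm at chr1:193507467-193507488.
mmu-miR-205-5p: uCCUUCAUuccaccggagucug
mmu-miR-205-3p: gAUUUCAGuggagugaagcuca
The libraries captured polyadenylated RNA, so neither arm was counted.

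Depth was similar between the mice, with 55465594 UMIs over 4545 control barcodes and 49733560 over 4264 induced barcodes. The libraries shared 11 barcodes, none of them among the members. Members had a median of 8822 UMIs and 2321 genes in the control and 8847 UMIs and 2335 genes in the induced library, against 12318 and 12116 UMIs in the other kept cells. The median mitochondrial share was 6.82% in control and 6.18% in induced members, against 4.90% and 4.84% in the other kept cells. A filter at under 5% mitochondrial UMIs left 16 control and 40 induced members and turned the sign of the induced over control ratio for 9 named genes.

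The cells were checked against their markers. Shares of cells with a UMI are given after each cell was thinned to 4000 UMIs, with the unthinned share beside it. This left 111 control and 261 induced members, with 3 and 5 shallower cells left out. Sncg was detected in 78.4% of control members (interval 69.6 to 85.6, unthinned 93.0%) and 62.8% of induced members (56.7 to 68.7, unthinned 81.6%). Fgf18 was detected in 26.1% (unthinned 41.2%) and 46.7% (unthinned 65.8%), and Krt75 in 22.5% (unthinned 27.2%) and 28.7% (unthinned 37.6%). In fibroblasts, which should lack all 3 genes and had medians of 12285 and 11758 UMIs, the shares were 0 of 106 control cells for each, which allows up to 2.83%. In 140 induced fibroblasts they were 0 for Krt75 and Fgf18 (up to 2.14%) and 1.43% for Sncg. The rule used these counts, so they are a description.

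Bmp6, which the rule did not use, was found in 15.3% of control members (interval 9.18 to 23.4, unthinned 30.7%) and 20.7% of induced members (15.9 to 26.1, unthinned 34.6%). In outer bulge cells the share was 4.88% and 4.37%, and in fibroblasts 0 in both libraries. Outer bulge cells are here non-members with at least 1 UMI of Krt24, 3 or more over Cd34 and Krt24 and the same caps, 208 in the control and 258 in the induced library.

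Of the other 2 markers given for this cell type, neither was higher in members than in the outer bulge. Levels are given as CPM, the UMIs of a gene per 1000000 UMIs summed over the cells of a population. Krt6a stood at 2464 CPM in control members and 3191 in outer bulge cells, and at 2198 and 2843 in the induced library. Timp3, an inhibitor of matrix proteases, stood at 28.5 and 89.1 CPM in control and induced members, 50.7 and 173 in outer bulge cells and 186 and 182 in all other kept cells. The cells are therefore called Sncg/Krt75/Fgf18 cells, after the genes that chose them.

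The 3 markers did not mark the same cells. Sncg was the only one detected in 48 of 114 control members (42.1%) and 50 of 266 induced members (18.8%). Sncg with Fgf18 but no Krt75 was seen in 33 control (28.9%) and 90 induced members (33.8%), and all 3 genes in 10 (8.77%) and 45 (16.9%). Fgf18 alone accounted for 2 control (1.75%) and 26 induced members (9.77%). At this depth a gene with few UMIs per cell is often missed, so an undetected marker does not show its absence.

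Just inside the threshold, 31 control and 67 induced members had exactly 3 marker UMIs. Just outside it, 53 control and 79 induced cells met the rest of the rule with 2 marker UMIs. In the control, S100a6 stood at 13998 CPM inside and 11427 outside, and Krt15 at 9408 and 9048. In the induced library S100a6 stood at 17073 and 15338, and Krt15 at 12204 and 11481. Other genes changed direction between the libraries. Bmp6 stood at 22.1 CPM inside and 28.7 outside in the control, and at 33.7 and 30.9 in the induced library. Cd34 stood at 615 and 447 in the control and 743 and 816 in the induced library, and Krt24 at 158 and 212, then 356 and 328. Under 10 Krt14 UMIs were found in 58.1% of control cells inside and 39.6% outside, and in 67.2% and 65.8% of induced cells.

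Marker lists were then summed over all members of each library. The 6 inner bulge markers, mostly Krt6a UMIs, summed to 3202 and 3098 CPM in control and induced members and to 3303 and 3081 in outer bulge cells, so the sum did not set members apart. The 10 outer bulge markers summed to 14499 and 16605 CPM in members and 13010 and 15652 in outer bulge cells. Most of this sum was Krt15, at 11183 and 12954 CPM in members and 8860 and 10826 in outer bulge cells. Over 8 genes of the list, without Cd34 and Krt24, the median log2 ratio of members over outer bulge cells was −0.16 and −0.31. Cd34 and Krt24, which chose the outer bulge cells, were lower in members. The 9 suprabasal markers summed to 8646 and 9315 CPM in members and 5594 and 6432 in outer bulge cells. Most of this difference was Sbsn alone, at 4211 and 4741 CPM in members and 1499 and 1846 in outer bulge cells. The 7 upper follicle markers summed to 3952 and 4736 against 2584 and 3181. They include Cst6, which was capped in both populations.

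Markers of other lineages were summed in the same way. The 5 Merkel cell markers summed to 0 and 3 UMIs in the control and induced library, with Atoh1, Krt20 and Sox2 at 0 in both. The 9 immune markers summed to 48 and 67 UMIs, with Cd3g at 0 in both. Both lists had a median of 0 UMIs per member. The 8 fibroblast markers summed to 324 and 409 UMIs (298 and 164 CPM), with Pdgfra and Mfap5 at 0 in both. Sparc held 277 and 346 of these UMIs (255 and 139 CPM), and stood at 576 and 568 CPM in outer bulge cells. The list includes Col1a1 and Col1a2, which the rule capped, so their low counts follow from the rule. The 6 melanocyte markers summed to 71 and 172 UMIs, with Pmel, Mlana, Tyrp1 and Tyr at 0 in both. The 7 endothelial and blood markers summed to 8 and 135 UMIs (7.35 and 54.2 CPM), with Hbb-bs and Hbb-bt at 0 in both. The 8 inner root sheath markers summed to 84 and 195 UMIs, of which Gata3 held 76 and 168, with Krt71, Krt73, Krt72, Krt27 and Krt28 at 0 in both. Mki67 and Top2a, genes of dividing cells, had 0 and 1 UMIs in control members and 1 and 3 in induced members.

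The members were divided in Krt14 (chr11:100203162-100207510), the keratin that pairs with Krt5 in basal cells. Of 114 control members, 26 had no Krt14 UMI, 47 had 1 to 4, and 34 had 20 or more. Of 266 induced members, 87 had none, 124 had 1 to 4, and 47 had 20 or more. Few cells lay in between: 7 control and 8 induced members had 5 to 19 UMIs. In outer bulge cells 8.17% and 8.53% had under 10.

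**Figure D1:**
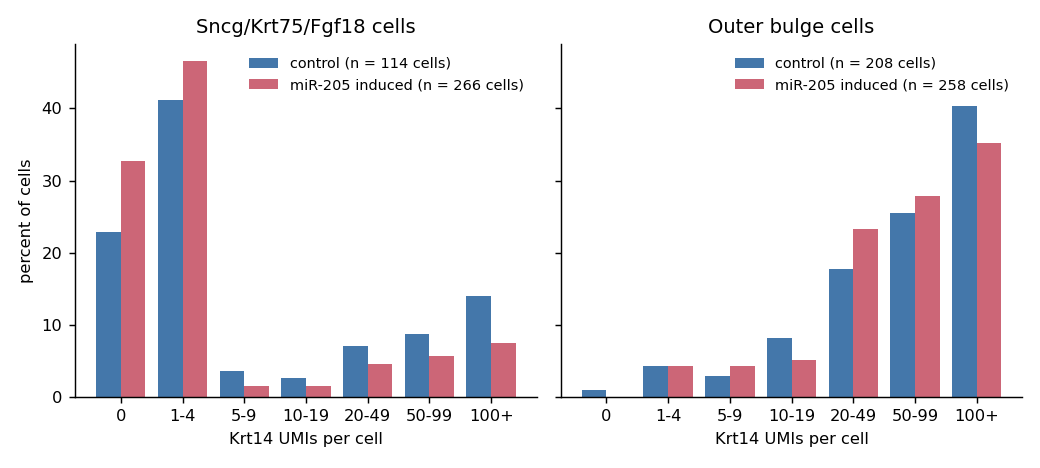
Percent of cells (vertical axis) by Krt14 UMIs per cell (horizontal axis, unequal bins) in Sncg/Krt75/Fgf18 cells (left) and outer bulge cells (right), control in blue and induced in red. Members fell into a group with 0 to 4 UMIs and a group with 20 or more, whereas most outer bulge cells had 20 or more.

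Members were therefore also described in 2 classes, Krt14-low with under 10 UMIs (77 control and 215 induced cells) and Krt14-high with 10 or more (37 and 51 cells). This division was made after the counts had been seen and is a range of 1 measurement, not a cell type. Among Krt14-low members, the thinned share with a Krt14 UMI was 48.6% (interval 36.9 to 60.6) in the control and 32.9% (26.5 to 39.7) in the induced library. Fibroblasts, which should lack Krt14, had 36.8% (27.6 to 46.7) and 40.7% (32.5 to 49.3). Median depth was 8157 and 8347 UMIs in Krt14-low members and 12285 and 11758 in fibroblasts, and the unthinned shares were 66.2% and 59.5% against 80.2% and 66.9%. These intervals overlapped in each library. Krt14-low members were chosen by low Krt14 and fibroblasts were not, so their shares cannot be compared on equal terms. Whether the Krt14 UMIs of Krt14-low members came from free RNA was not tested. Krt5 did not follow this division, at 5528 and 5317 CPM in Krt14-low members and 5308 and 5373 in Krt14-high members.

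The classes also differed in genes other than Krt14, those named here in the same direction in both libraries. Krt24, an outer bulge keratin, had a median of 0 UMIs per Krt14-low cell in both libraries, against 1 in control and 5 in induced Krt14-high cells. It was detected in 7 of 77 and 13 of 215 Krt14-low cells, and in 22 of 37 and 34 of 51 Krt14-high cells. Thbs1, a matricellular protein, stood at 33.9 and 43.7 CPM in control and induced Krt14-low members and at 2643 and 839 in Krt14-high members. Ptgs2, the inducible prostaglandin synthase, stood at 12.9 and 9.83 against 918 and 400. Nedd9, an adhesion scaffold, stood at 29.1 and 12.6 against 512 and 288. Outer bulge cells held 2945 and 969 CPM of Thbs1, 572 and 278 of Nedd9, 1286 and 768 of Ptgs2 and 500.5 and 995 of Krt24. Krt14-high members, with 233 and 691 CPM of Krt24, lay below outer bulge cells in Ptgs2 and Krt24.

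Other genes were higher in Krt14-low members. S100a6, a calcium-binding protein of stem and wound keratinocytes, had a median of 152 UMIs per control and 176 per induced Krt14-low cell, and 116 and 136 in Krt14-high cells. Sbsn, a secreted protein of differentiating keratinocytes, stood at 5886 and 5565 CPM against 1996 and 2458. Fgf18 stood at 119 and 246 against 40.6 and 123, and Bmp6 at 56.5 and 62.8 against 19.2 and 34.8. Cd34 was similar in both classes, at 500 and 586 CPM in Krt14-low and 587 and 689 in Krt14-high members. Fgf18 and Krt24 chose members and outer bulge cells, so their values here are a description.

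**Figure D2:**
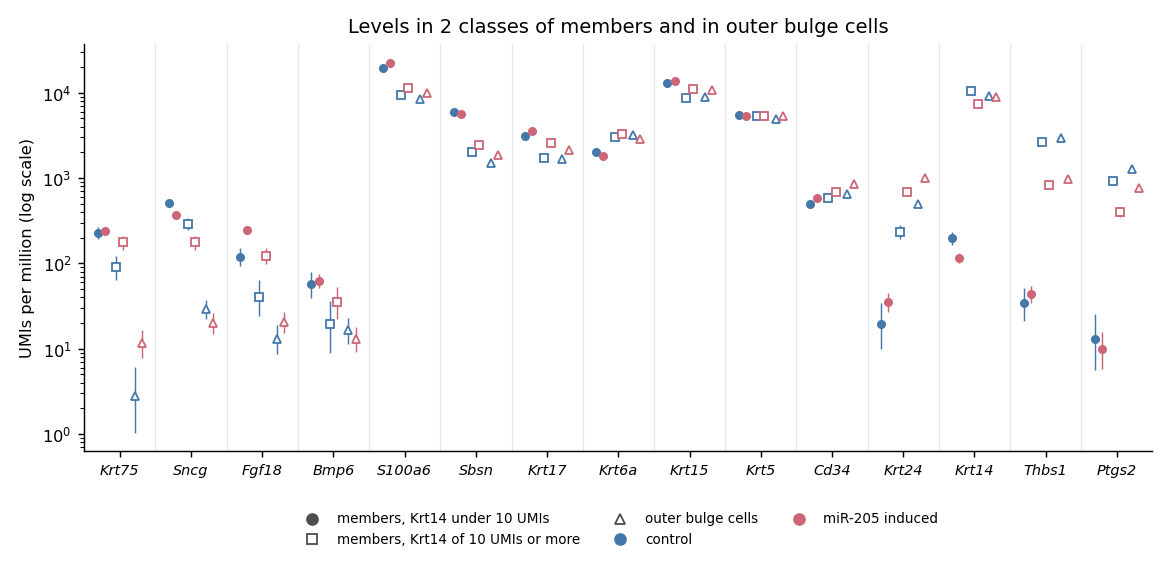
CPM (vertical axis, log scale) of 15 genes in Krt14-low members (filled circles), Krt14-high members (open squares) and outer bulge cells (open triangles), control in blue and induced in red, with 95% counting intervals. Krt14-low members held more Fgf18, S100a6 and Sbsn and less Krt24, Krt14, Thbs1 and Ptgs2 than Krt14-high members and outer bulge cells, while Krt5 was similar.

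The leading genes of the members were those with the highest log2 ratio over all other kept cells, taking the lower library, among genes with 200 or more UMIs in members of each library. Cells had been chosen by Sncg and Krt6a, so those ratios follow from the rule, and the rest describe the cells without a test. After Sncg (log2 6.15 in the control and 5.16 in the induced library) came S100a6 (2.43 and 2.36). Next were Plxna2, a semaphorin receptor, Cd34, and Actn1, an actin crosslinker. Id1, a BMP target, Calml3, Tgm5, an epidermal transglutaminase, and Krt15 were also among the 15, with Ptn, a secreted growth factor, and Hspb1, a small heat shock protein. Sqle and Idi1, enzymes of cholesterol synthesis, were on the same list. Several of these genes stood lower in members than in outer bulge cells of the control. There Plxna2 stood at 234 CPM in members and 283 in outer bulge cells, Cd34 at 538 and 643, Tgm5 at 199 and 363, Id1 at 535 and 682, and Hspb1 at 11864 and 13088. In the induced library Plxna2 (223 and 226), Cd34 (613 and 854) and Tgm5 (137 and 237) were again lower in members, while Id1 (622 and 539) and Hspb1 (11284 and 10636) were higher.

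The leading list also held 4631405K08Rik, named Mir205hg in RefSeq, the host transcript of miR-205 (chr1:193506460-193510210), within whose bounds the miR-205 hairpin lies (chr1:193507463-193507530). It stood at 424 CPM in control and 357 in induced members, against 176 and 110 in outer bulge cells and 95.8 and 91.0 in all other kept cells. The level was 602 and 420 in Krt14-low members and 188 and 182 in Krt14-high members. The induced over control log2 ratio was −0.25 (interval −0.41 to −0.08) in all members and −0.52 (−0.70 to −0.34) in Krt14-low members, and turned to 0.48 with under 5% mitochondrial UMIs. A count of this RNA is not a count of mature miR-205.

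Members were next set against outer bulge cells within each library. A gene was past the fold when its log2 ratio was at least 1, or at most −1, in both libraries. Among 5293 genes with 50 or more UMIs in each library, without the genes that chose the cells, 76 (1.44%) were higher in members and 117 (2.21%) were lower. Both populations share the same libraries, and these counts carry no test. Each ratio pools both Krt14 classes, whose mix differed between the libraries. For some genes below, only Krt14-low members stood far from outer bulge cells. In the control, Thbs1 stood at 33.9 CPM in Krt14-low members, 2643 in Krt14-high members and 2945 in outer bulge cells.

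Among BMP and TGF-beta genes, 1 of 25 measured was higher and 3 were lower. Bmp6 (chr13:38345716-38500314) stood at 40.4 CPM in control members and 16.4 in control outer bulge cells, and at 55.4 and 13.1 in the induced library, log2 ratios of 1.30 (interval 0.63 to 1.98) and 2.07 (1.54 to 2.66). The lower genes were Grem1, a BMP antagonist (log2 −1.12 and −1.56), Sostdc1, a BMP and Wnt antagonist (−1.54 and −1.81), and Id2, a BMP target (−1.52 and −1.24). Id1 did not pass in either direction, with log2 ratios of −0.35 in the control and 0.21 in the induced library. The receptor Bmpr2 and the transducer Smad1 were within 0.26 of 0 on the log2 scale in both libraries. The list medians were −0.33 and −0.35, beside 0.04 and 0.02 over all genes measured.

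Of the FGF list, 7 genes were measured beside the rule gene Fgf18. The receptor Fgfr3 was past the fold, at 20.2 and 32.9 CPM in members and 46.9 and 76.5 in outer bulge cells. Fgfr1 had log2 ratios of −0.77 and −1.13 and Fgfr2 of −0.62 and −0.79. The extracellular FGF carrier Fgfbp1 was at 0.53 and 0.24, and the feedback phosphatase Dusp6 at −0.58 and 0.03. The list medians were −0.72 and −0.79.

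Of 16 measured Wnt genes, the receptor Fzd2 (log2 −1.60 and −1.81) and the inhibitor Sfrp1 (−1.25 and −1.72) were lower. Of 21 measured stem cell transcription factors, Klf4 and Id2 were lower. Klf4 stood at 1198 CPM in control members and 3314 in control outer bulge cells, and at 866 and 3117 in the induced library. Sox9 (0.12 and 0.73), Nfatc1 (−0.20 and −0.21) and Lhx2 (−0.87 and −0.78), transcription factors of the bulge, did not pass. None of 5 measured Notch genes passed.

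Adhesion genes went both ways. Nectin4, a cell-cell adhesion protein, stood at 89.2 and 82.7 CPM in members and 5.63 and 5.22 in outer bulge cells, log2 ratios of 3.93 and 3.94. By class it stood at 142 and 105 CPM in Krt14-low and 19.2 and 19.7 in Krt14-high members. It was the 1 of 18 measured desmosome and adherens junction genes to pass. Ocln, a tight junction protein, was the 1 of 10 tight and gap junction genes, at 1.08 and 1.74. Of 19 measured genes for hemidesmosomes and basement membrane adhesion, none was higher and 4 were lower: the integrin Itgb6 (−1.37 and −1.77), the collagens Col4a1 (−1.39 and −1.28) and Col4a2 (−1.19 and −1.93), and the integrin ligand Npnt (−1.72 and −1.80). The list medians were −0.48 and −0.84.

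Suprabasal markers that passed were higher in members, while wound genes went both ways. Of 5 measured suprabasal epidermis markers, Sbsn (log2 1.49 and 1.36) and Calm4 (2.67 and 3.23) were higher and none was lower. Of 11 wound genes, Krt16 (1.28 and 1.19) and Sprr1a, a cornified envelope precursor (1.67 and 2.07), were higher, and Tnc, a wound matrix protein, and the EGFR ligand Hbegf were lower. Of 7 measured keratins, Krt16 was higher and Krt14 lower (−1.01 and −2.14). In Krt14-high members Krt14 stood at 10398 and 7311 CPM, beside 9224 and 8902 in outer bulge cells. Krt15 was at 0.34 and 0.26. Keratin genes together made up 2.91% of control and 2.84% of induced member UMIs, and 2.95% and 3.21% in outer bulge cells. Krt6b, the close paralog of Krt6a, had 0 UMIs in members, so how reads were shared between this pair cannot be read from these counts.

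Of 33 immediate early and stress genes, none was higher and 6 were lower: Fos, Fosb, Egr2, Klf2, Nr4a1 and Dusp1. Fos stood at 971 CPM in control members and 3741 in control outer bulge cells, and at 1747 and 4355 in the induced library. These genes also respond to tissue dissociation, whose part was not tested. The list medians were −0.92 and −0.58. Of 60 actin and contractility genes, Gsn, an actin-severing protein (1.02 and 1.11), was higher, and Rhob, a small GTPase, and Cald1, an actin-binding protein, were lower.

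Of 87 transcripts listed as bound by miR-205 in crosslinking data, 1 was higher, Lmo7 (1.63 and 1.10), and 6 were lower, Met, Nedd9, Nt5e, Thbs1, Dusp1 and Snai2. Among genes outside the lists, chosen after their values were seen, Ramp1, a receptor accessory protein, stood at 136 and 199 CPM in members and 9.39 and 14.6 in outer bulge cells. Pmp22, a membrane protein, stood at 576 and 731 against 149 and 107. Rhov, a small GTPase, stood at 39.5 and 87.9 against 3.29 and 2.24, and at 4.27 and 16.7 in Krt14-high members.

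The share of members differed between the libraries. Members were 2.90% of kept control cells (exact binomial interval 2.39 to 3.47) and 7.33% of kept induced cells (6.50 to 8.23). The gap was 4.44 percentage points (Newcombe interval 3.45 to 5.45). Krt14-low members were 1.96% (1.55 to 2.44) and 5.93% (5.18 to 6.74). Krt14-high members were 0.940% (0.663 to 1.29) and 1.41% (1.05 to 1.84), and the interval of that difference, −0.021 to 0.973 points, included 0. Outer bulge cells were 5.28% and 7.11% of kept cells, a difference of 1.83 points (0.741 to 2.93). As a share of members plus outer bulge cells, members were 35.4% (30.2 to 40.9) in the control and 50.8% (46.4 to 55.1) in the induced library.

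Because Fgf18 was both part of the rule and higher in the induced library, the share was also taken without it. With 3 UMIs over Krt75 and Sncg, 94 control (2.39%) and 187 induced cells (5.15%) were found. With Sncg alone, 77 (1.96%) and 138 (3.804%) were found. A set that used none of the 3 markers, with 20 or more UMIs of Krt15, Cd34 present, Krt14 under 10 and the same caps, held 177 control (4.50%, interval 3.87 to 5.19) and 412 induced cells (11.4%, 10.3 to 12.4). Of that set, 69 control and 206 induced cells were members. Krt15 and Cd34 were also higher in the induced library, at log2 0.29 and 0.41 in outer bulge cells. Krt14 under 10 UMIs is the cut of the Krt14-low class, whose share was 3.03 fold as high in the induced library. This set is therefore a description and not an independent check. These 3 alternatives were chosen after seeing the data. The induced share was higher under each, by 1.94 to 2.53 fold. With the filter at under 5% mitochondrial UMIs, 16 and 40 members were left, a difference of 1.38 points. One mouse and 1 sort stand behind each share, so the spread between mice was not measured, and a difference in the sort cannot be told apart from one in the skin.

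**Figure D3:**
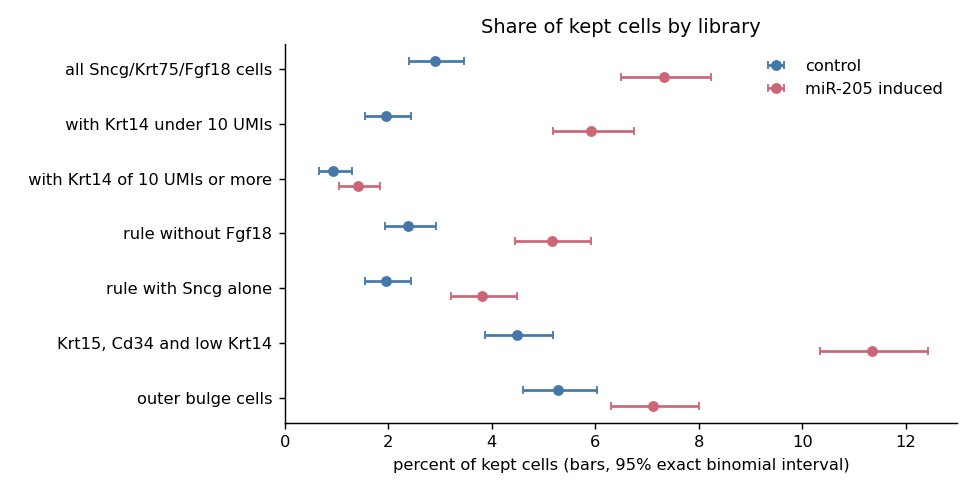
Percent of kept cells (horizontal axis) in the control (blue) and induced (red) library for all members, the Krt14 classes, 3 other rules and outer bulge cells, with 95% exact binomial intervals. The induced share was higher for each set, and the intervals overlapped only for Krt14-high members.

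Within members, induced was set against control for 5684 genes with 50 or more UMIs over both libraries. At a log2 ratio of 1 or more, 96 genes (1.69%) were higher, and at −1 or less, 59 genes (1.04%) were lower, with a median of 0.03 over all. Ratios are of CPM over the summed members, with 0.5 UMIs added to each count. The mix of Krt14-low and Krt14-high members differed between the libraries, with 67.5% Krt14-low in the control (interval 58.1 to 76.0) and 80.8% in the induced library (75.6 to 85.4). For many genes the value in Krt14-low members is therefore given beside the ratio. In Krt14-low members 88 of 4614 genes (1.91%) were higher and 30 (0.65%) were lower.

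The 10 lowest genes, by the rule on 200 UMIs and no 5 cells holding over 50% of the UMIs, differed in how far they held within each Krt14 class. The share is that of the library with more of the gene. Thbs1 stood at 1157 CPM in the control and 255 in the induced library, log2 −2.18 (interval −2.32 to −2.05), and was at 0.34 (−0.34 to 1.13) in Krt14-low members. Myadm, a membrane protein of myeloid differentiation, stood at 144 and 30.9, log2 −2.22, and was at 0.13 (−0.79 to 1.24) in Krt14-low members. Krt14 itself stood at 4589 and 2024, log2 −1.18, and Cald1 at 176 and 80.3, log2 −1.13, which was −0.31 (−0.80 to 0.21) in Krt14-low members. In Krt14-high members, which held most of these RNAs in the control, Thbs1 was at −1.65, Myadm at −2.45 and Cald1 at −1.24, and outer bulge cells were at −1.60, −1.85 and −1.15. The Krt14-low values rest on few counts, with 12 control and 40 induced UMIs for Myadm and 21 and 80 for Thbs1. Krt14, whose counts define the classes, was at −0.77 (−1.09 to −0.43) in Krt14-low and −0.51 in Krt14-high members.

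Like Krt14 and Cald1, the other 6 low genes were below 0 in both classes. Serpinb2, a protease inhibitor, stood at 2718 and 891 CPM, log2 −1.61, and at −1.80 (−1.91 to −1.69) in Krt14-low members. Marcksl1, an actin-regulating protein, stood at 173 and 58.6, log2 −1.56, and at −1.51 (−1.90 to −1.12). Eva1a, a regulator of autophagy, stood at 237 and 98.4, log2 −1.27, and at −1.17 (−1.48 to −0.87). S100a4, Nedd9 and Sgk1, a stress-induced kinase, had log2 ratios of −1.62, −1.47 and −1.24, and −1.04, −1.22 and −0.73 in Krt14-low members. Outer bulge cells showed −1.54 for Serpinb2, −1.71 for Marcksl1 and −1.72 for Eva1a, so these differences between the libraries were not limited to members. In Krt14-high members S100a4, Nedd9 and Sgk1 were at −1.36, −0.83 and −0.95, so Sgk1 was past the fold in neither class. For the same 3 genes outer bulge cells showed −0.89, −1.04 and −0.06.

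Among the 10 highest genes, Gm8797 stood at 18.4 and 738 CPM, log2 5.29. RefSeq lists it as a pseudogene, so its reads can come from a near-identical gene, and it was at 6.08 in Krt14-low members, 4.61 in outer bulge and 4.53 in upper follicle cells. Stmn1, a tubulin-binding protein, stood at 19.3 and 74.3, log2 1.91 (interval 1.29 to 2.67), and Socs3, a feedback inhibitor of cytokine signalling, at 47.8 and 150, log2 1.64 (1.23 to 2.10). Timp3 stood at 28.5 and 89.1, log2 1.63 (1.10 to 2.24), with 15 control and 90 induced cells holding a UMI. In Krt14-low members Stmn1 and Socs3 were at 1.56 and 2.11, and Timp3 at 0.80 (0.10 to 1.65). Timp3 was at 1.77 in outer bulge and −0.94 in upper follicle cells.

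Ybx3, an RNA-binding protein, stood at 286 and 710 CPM, log2 1.31. Camk2n1, an inhibitor of CaM kinase II, was at 1.52, Trp53inp1, a p53 target, at 1.24 and Hnrnpa0, an RNA-binding protein, at 1.22. These 4 genes were also past 1 in Krt14-low members. Their ratios in outer bulge cells were 1.18, 1.63, 0.98 and 0.85, in the order given here. Rhou, a small GTPase, was at 1.56 (1.02 to 2.18) in members, 1.22 (0.66 to 1.88) in Krt14-low members and −0.13 (−0.93 to 0.69) in outer bulge cells, with 27 control and 120 induced members holding a UMI. Whether those ratios differ between the cell populations beyond the spread between mice was not tested.

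Fgf18 stood at 85.5 CPM in control members and 213 in induced members, log2 1.31 (interval 1.00 to 1.65), and was at 1.03 (0.68 to 1.42) in Krt14-low members. Since it was part of the rule, cells with more Fgf18 were more likely to enter, and this value is a description. Outer bulge cells, which are non-members, had 13.1 and 20.5, log2 0.63 (−0.04 to 1.35). Sncg, also of the rule, stood at 416 and 320, log2 −0.38 (−0.55 to −0.21), and Krt75 at 168 and 222, log2 0.40 (0.16 to 0.65). The ratio for Krt75 changed sign, to −0.099 with under 5% mitochondrial UMIs and −0.55 with 10 or more marker UMIs.

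Of the 8 measured FGF genes, only Fgf18 was past the fold. Fgfbp1 stood at 375 and 235 CPM, log2 −0.67 (−0.86 to −0.49), while Fgfr1 (−0.21), Fgfr2 (−0.12) and Dusp6 (−0.17) had intervals that included 0. None of 25 BMP and TGF-beta genes was past the fold, with a median of 0.15. Bmp6 was at 0.44 (−0.05 to 0.98). The ligand Bmp2 stood at 108 and 168, log2 0.64 (0.35 to 0.95), and its intracellular inhibitor Smad7 at 188 and 133, log2 −0.51 (−0.76 to −0.25). The BMP targets Id1, Id2 and Id3 were at 0.22, 0.46 and 0.31, and Id4 at −0.45, while Id2 was at 0.02 (−0.33 to 0.38) in Krt14-low and 1.27 (0.85 to 1.74) in Krt14-high members. The antagonist Fst, an activin and BMP binder, was at −0.25 (−0.33 to −0.18) in all members, 0.41 (0.30 to 0.52) in Krt14-low and −0.90 (−1.02 to −0.79) in Krt14-high members. Nog and Grem1, BMP antagonists, were at 0.12 and 0.30, with intervals that included 0, although Grem1 was at 1.19 (0.55 to 1.95) in Krt14-low members. Sostdc1 was at 0.55 in all members and −0.36 (−0.92 to 0.24) in Krt14-low and 1.70 (1.15 to 2.33) in Krt14-high members. Bmpr2, Smad1 and Smad4 were at 0.18, −0.17 and 0.39, with intervals that included 0.

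None of 17 Wnt genes, 22 stem cell transcription factors, 6 Notch genes and 10 G1 cell cycle genes was past the fold, with medians of 0.03, 0.12, 0.11 and 0.02.

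Actin and adhesion genes were asked about because the study names Actb, Actn1, Actn4, Ctnna1, Rock2 and Piezo1 among transcripts that miR-205 targets. Actb, the cytoplasmic actin, stood at 8190 CPM in control and 6672 in induced members, log2 −0.30 (interval −0.33 to −0.26). In Krt14-low members it stood at 6800 and 6502, log2 −0.06 (−0.12 to −0.01). In Krt14-high members it stood at 10028 and 7145, log2 −0.49 (−0.55 to −0.43), and in outer bulge cells at 9234 and 6301, log2 −0.55 (−0.58 to −0.52). The counting interval of Krt14-low members did not overlap those of Krt14-high members and outer bulge cells. Upper follicle cells, which are not bulge cells, also showed a ratio near 0, at −0.06 (−0.08 to −0.04). Why Actb differed between these populations was not tested, and the level of miR-205 per cell was not measured here.

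The other 5 targets had smaller or less certain ratios. Actn4, an actin crosslinker, stood at 325 and 259 CPM in all members, log2 −0.33 (−0.52 to −0.14), and at −0.20 (−0.46 to 0.07) in Krt14-low and −0.37 (−0.52 to −0.23) in outer bulge cells. Rock2, a kinase of myosin contractility, was at −0.17 (−0.37 to 0.04) in all members, −0.06 (−0.31 to 0.21) in Krt14-low and −0.45 (−0.81 to −0.10) in Krt14-high members. Ctnna1, alpha-catenin, was at −0.02 (−0.21 to 0.18) in all members, 0.07 (−0.18 to 0.33) in Krt14-low and −0.31 (−0.46 to −0.16) in outer bulge cells. Actn1 was at 0.07 (−0.08 to 0.22) in all members. Piezo1, a mechanosensitive channel, was at 0.16 (−0.32 to 0.69) on 48 and 124 UMIs in all members, 0.41 (−0.28 to 1.22) in Krt14-low members and −0.47 (−0.82 to −0.13) in outer bulge cells.

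**Figure D4:**
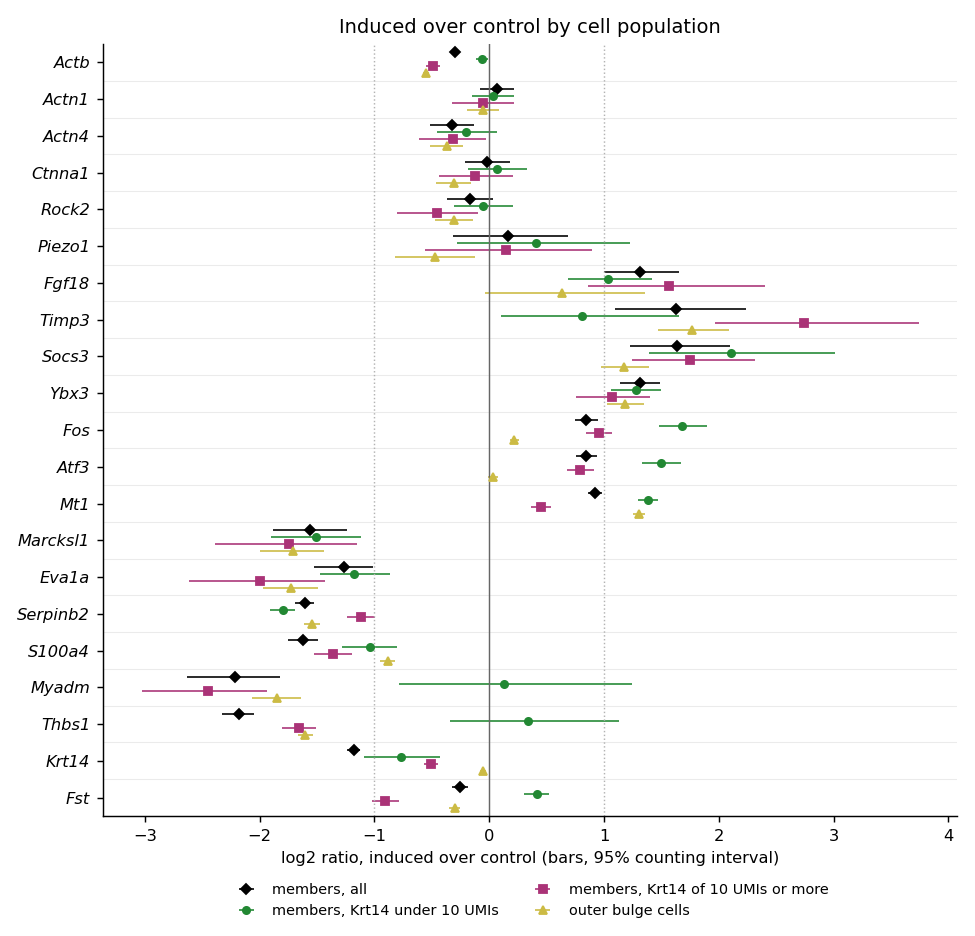
Log2 ratio of induced over control (horizontal axis) for 21 genes, in all members (black), Krt14-low members (green), Krt14-high members (purple) and outer bulge cells (yellow), with 95% counting intervals and dotted lines at −1 and 1. Actb, Thbs1 and Myadm lay between −0.06 and 0.34 in Krt14-low members and lower in the other 3 populations, while Ybx3, Marcksl1 and Eva1a were past the fold in all 4.

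Of 60 actin and contractility genes, none was higher and 3 were lower: Tpm2 and Cald1, which bind actin filaments, at −1.07 and −1.13, and the calponin Cnn2 at −1.20, which was at 0.23 (−0.76 to 1.46) in Krt14-low members. The median was −0.08 in all members, −0.05 in Krt14-low members, −0.26 in Krt14-high members and −0.16 in outer bulge cells. Below 0 were 34 of 59 measured genes in Krt14-low members and 46 of 56 in Krt14-high members. Of 92 listed miR-205-bound transcripts, Sox4, a transcription factor, and Ppp2cb, a phosphatase subunit, were higher, and Nedd9, Thbs1 and Snai2, a transcription factor, were lower, with a median of −0.01. Sox4 rested on 6 control and 111 induced UMIs, 55.9% of the latter in 5 cells, and Ppp2cb on 12 and 103. The 17 genes of hemidesmosomes and basement membrane adhesion had a median of −0.35, with 16 below 0 and 1 past the fold, Col7a1, the anchoring fibril collagen (log2 −1.51, 35 and 28 UMIs). That median was −0.17 over 13 genes measured in Krt14-low members and −0.13 over 15 in Krt14-high members, smaller in size in each class than over all members. In outer bulge cells it was −0.03, with 10 of 20 genes below 0. The 19 desmosome and adherens junction genes had a median of −0.09, and none passed.

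Immediate early and stress genes had a median of 0.38 over 33 genes, of which 24 were above 0 and 2 were past the fold, Socs3 and Nupr1, a stress-response factor (log2 1.40, 10 and 63 UMIs). By class the list median was 0.28 in Krt14-low and 0.50 in Krt14-high members, and it was −0.0015 in outer bulge cells. The list median was thus not larger in Krt14-low than in Krt14-high members. In Krt14-low members 23 of 30 measured genes of the list were above 0, beside 2392 of 4614 over all genes. The ratios were larger within Krt14-low members for several AP-1 and stress genes, named after their values were seen. Fos stood at 349 and 1122 CPM in Krt14-low members, log2 1.68 (1.48 to 1.90), against 0.85 in all members and 0.22 (0.18 to 0.26) in outer bulge cells. It was also higher in induced Krt14-high members, at 1793 CPM in the control and 3480 in the induced library. Atf3 stood at 529.5 and 1495 CPM in Krt14-low members and was at 0.03 (−0.01 to 0.08) on the log2 scale in outer bulge cells. Egr1 was at 0.89 in Krt14-low members and −0.26 in outer bulge cells. The metallothionein Mt1 was at 1.38 (1.29 to 1.47) in Krt14-low members, 0.45 in Krt14-high members and 1.30 in outer bulge cells.

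Further genes past the fold fell outside these groups. Calm4 was higher in the induced library (log2 1.05, 63 and 301 UMIs), as was the lipid droplet gene Plin2 (1.08), which was at −0.83 in Krt14-low members. Elovl6, a fatty acid elongase, was lower (−1.13). The haemoglobin gene Hba-a2 had 6 and 81 UMIs, in 5 and 44 cells. Several genes past the fold rested on a handful of cells. Slpi had 0 control and 88 induced UMIs, the latter in 3 cells. Sprr1b had 83 and 40 UMIs in 6 and 9 cells, Cxcl1 42 and 45 UMIs in 5 and 11 cells. In 8 genes with 200 or more UMIs, 5 cells held over 50% of the UMIs of the higher library: Vim, Ccl2, Ccl7 and Akr1c18 on the higher side, and Ifi202b, Epgn, Ptgs2 and Fcgbp on the lower. For Vim, 5 induced cells held 92.2% of 231 UMIs.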

How the data were processed

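The authors ran Cell Ranger (version 3.0.1 per the file headers) and deposited its raw UMI counts, whole numbers without normalization, for 31053 features in 2 libraries, 1 control and 1 miR-205-induced. The submitters' processing notes name mm10. Cells were kept by the study's filter on genes and mitochondrial UMIs. Members, gene lists and comparisons were chosen with earlier results of these data known. Counts were summed over the cells of a population in each library and scaled to CPM by the summed UMIs, in Python 3.11.15 with numpy 2.4.6 and scipy 1.17.1. Shares have exact Clopper-Pearson intervals, levels exact Poisson intervals, ratios exact conditional binomial intervals and differences of shares Newcombe intervals. The computation of ratios and intervals was checked on simulated counts, which tests no ratio of these data. The Krt14 classes, the rules without Fgf18 and the genes said to be chosen by value were set after seeing the data. No test between groups was run, because each group is 1 library. Thinning drew UMIs without replacement.

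Named genes were those of the rule, Timp3, Bmp6, 6 named miR-205 targets, the 15 leading genes, the 10 highest and 10 lowest ratios (at least 200 UMIs, without mitochondrial, ribosomal protein, haemoglobin, Y-linked and rule genes and Xist), list genes past the fold, with up to 6 per list against the outer bulge, and FGF and BMP genes with at least 200 UMIs. Doublets were not removed. Scrublet in scanpy 1.11.5 marked the top 3.64% of control and 3.41% of induced barcodes in an alternative, among them 4 control and 10 induced members. One of the 10 highest ratios is not reported here.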

Additional observations from a re-analysis of the deposited data

Results flagged for a closer look

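Ccl2 and Ccl7, chemokine genes, differed in the direction of their induced over control log2 ratio between Sncg/Krt75/Fgf18 cells and outer bulge cells. Ccl2 was at 4.39 in members and −1.62 in outer bulge cells, and Ccl7 at 3.22 and −1.09. The difference between these populations was not tested, and each population is 1 library against 1. In induced members 5 cells held 97.3% of the 694 Ccl2 UMIs and 94.2% of the 308 Ccl7 UMIs. In Krt14-low members Ccl7 was at −0.88 (−2.01 to 0.38) and Ccl2 at 0.92 (−0.10 to 2.28).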

How the results depend on the processing

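Each group is 1 library, so no alternative measures the spread between mice, and no replicate could be left out. No paired analysis was possible because each group holds 1 sample and no test was run. The excess of members in the induced library, 4.44 percentage points, was 1.38 with under 5% mitochondrial UMIs, 2.76 with 5 or more marker UMIs, 1.09 with 10 or more, 2.15 after thinning, 2.77 without Fgf18, 1.85 with Sncg alone and 6.86 with Krt15, Cd34 and Krt14 in place of the markers. It was 15.4 points of members plus outer bulge cells. It stayed above 0 under each. The causes of the changes below were not tested, but the filters on mitochondrial UMIs and on 10 marker UMIs left 16 and 18 control members.

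With under 5% mitochondrial UMIs the induced over control medians became −0.47 for the named miR-205 targets, −0.28 for actin genes, −0.16 for miR-205-bound transcripts, −0.87 for hemidesmosome genes, −0.35 for desmosome genes, 0.46 for Wnt genes and 0.39 for stem cell transcription factors. With 10 or more marker UMIs they became −0.24 for actin genes and 0.62 for Wnt genes, and 31 of 1915 genes were lower past the fold. Without a minimum beyond 1 UMI, 1596 genes were higher and 1345 lower of 13473, and with at least 200 UMIs 18 were higher and 19 lower of 2183. In Krt14-low members 30 genes were lower and the hemidesmosome median was −0.17. Against outer bulge cells, Krt14-low members were higher in 119 and lower in 251 of 4889 genes, of which 68 and 110 were shared with the 76 and 117 over all members. With a stricter outer bulge, 66 and 87 were shared.

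Signs changed for 37 values of single genes, among genes whose interval over all members excluded 0. Changes of sign in other genes were not counted. With under 5% mitochondrial UMIs these were Krt75 at −0.099, 4631405K08Rik at 0.48, Ptn at 0.16, Idi1 at 0.18, Elovl6 at 3.25, Cxcl1 at 3.21, Bmp2 at −0.33, Id4 at 0.22 and Krt17 at −0.11. With 10 or more marker UMIs they were Krt75 at −0.55, S100a4 at 0.37, Nedd9 at 1.60, Krt14 at 1.34, Cald1 at 0.042, Elovl6 at 1.11, Snai2 at 1.23, Nupr1 at −0.72, Cxcl1 at 0.38, Id2 at −0.31, Sostdc1 at −0.59, Krt24 at −2.68, Krt16 at 1.76 and Sbsn at −0.31. With both caps under 5 they were Plin2 at −0.0046 and Akr1c18 at −1.57. In Krt14-low members they were Hspb1 at 0.039, Myadm at 0.13, Thbs1 at 0.34, Plin2 at −0.83, Cnn2 at 0.23, Epgn at 0.022, Cxcl1 at 0.55, Fst at 0.41, Sostdc1 at −0.36, Ccl7 at −0.88, Akr1c18 at −1.81 and Sbsn at −0.081. Counted in the same way, no sign changed without the highest Scrublet scores or with totals without mitochondrial and ribosomal protein genes. The same held with median-of-ratios scaling and with the mean over cells.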
